A study of Homo sapiens with 6 samples.

Results

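The enzymes of serine synthesis, mitochondrial folate metabolism and asparagine synthesis were followed across the libraries of a CPT2 knockdown experiment. The 10 genes, ASNS, PSAT1, PHGDH, PSPH, SHMT1, SHMT2, MTHFD2, MTHFD1L, ALDH1L2 and PCK2, were chosen by symbol from the 24154 genes of the deposited table. All 10 were found and all 10 passed the filter on low counts. Poly(A) RNA-seq had been made from cells labelled HCT116, a human colorectal carcinoma line, after 48 h with a negative control siRNA (NC, 3 libraries) or with an siRNA against CPT2 (CPT2 knockdown, 3 libraries). Both groups thus received an siRNA, and no untreated library was analysed here. The labels name no genotype other than the knockdown, leave out the siRNA sequence, and are silent on whether each replicate was its own culture. The p-values therefore measure only the spread between these libraries, which may be technical.

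Serine is made from the glycolytic intermediate 3-phosphoglycerate by PHGDH, PSAT1 and PSPH, acting in that order. SHMT1 in the cytosol and SHMT2 in mitochondria split serine into glycine and a carbon unit carried on folate. In mitochondria MTHFD2, MTHFD1L and ALDH1L2 oxidise that unit to formate or carbon dioxide, and the formate feeds purine and thymidylate synthesis in the cytosol. ASNS makes asparagine from aspartate and glutamine, and PCK2, the mitochondrial phosphoenolpyruvate carboxykinase, can feed carbon back towards serine. Many of these genes are known targets of ATF4, the transcription factor of the integrated stress response. Colorectal and other carcinomas are known to use the pathway for nucleotide synthesis during proliferation.

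CPT2, the carnitine palmitoyltransferase of the inner mitochondrial membrane needed for fatty acid oxidation, was the targeted gene. Its raw counts were 709, 881 and 911 in the controls, in replicate order, and 492, 597 and 553 in the knockdown. The knockdown libraries lay below every control, as they did for 12.2% of all tested genes. The log2 fold change was -0.44 (SE 0.17), with an adjusted p of 0.338 by edgeR, above the threshold of 0.05. The longest CPT2 transcript had a GC content of 38.5%, in the lowest GC decile of the tested genes, whose median log2 fold change was -0.41. With offsets for transcript GC content and length the CPT2 value was 0.030 (SE 0.20, adjusted p = 0.960; 0.0937 to 0.991 over all alternatives). In that setting CPT2 lay at 0.51 in knockdown replicate 1 and at -0.28 and -0.20 in replicates 2 and 3, against controls of -0.082 to 0.17, and without replicate 1 the value was -0.25.

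The libraries held 28353790 to 29449380 counts. The labelled cell type was checked against 10 colorectal epithelial markers, of which 5 stayed under 1 CPM (counts scaled to library size with TMM factors) in every library and CDX2 was at 0 throughout. EPCAM lay between 2.68 and 4.32 CPM and CDH1, E-cadherin, between 1.03 and 2.90 CPM, although HCT116 is known to express both, while KRT8 and KRT18 lay at 609 CPM or above. The summed colorectal markers (mostly KRT8 and KRT18) were 1550 to 1810 CPM in controls and 1720 to 2660 CPM in the knockdown. The levels of CDX2, EPCAM and CDH1 go against the label, so the cells are called here only by it. Of the markers of other cell types, 4 of 6 fibroblast, 4 of 6 immune and 2 of 4 endothelial genes stayed under 1 CPM in every library, with LYZ, MS4A1 and LUM at 0. Their summed levels in controls and knockdown were 61.4 to 80.6 and 79.7 to 132 CPM for fibroblast genes (mostly COL1A1), 20.5 to 21.9 and 28.5 to 31.0 CPM for immune genes (mostly CD68), and 72.8 to 89.4 and 53.6 to 70.3 CPM for endothelial genes (mostly CDH5). Their part in the results was not tested. In bulk RNA, fewer cells of a type and less RNA per cell cannot be told apart.

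CPT2 knockdown replicate 1 stood apart in ways that touch these genes. Fold changes followed transcript GC content (Spearman's rho 0.677 across 13207 genes, which are not independent replicates), and the lowest GC decile had a median of -0.95 on the log2 scale against the control mean in this library, of -0.041 in replicate 2 and of -0.28 in replicate 3. A list of transcripts known to stay in the nucleus or keep introns was read as a measure of RNA quality (6 of 8 were in the table, median GC content 37.1%). It had medians of -0.95, -0.13 and -0.36 in knockdown replicates 1, 2 and 3. The median log2 fold change of this list was -0.50, and -0.089 with GC and length offsets, so the list was not a measure separate from the GC trend. Mitochondrially encoded genes took 17.0%, 15.6% and 8.99% of the counts in knockdown replicates 1, 2 and 3 and no more than 10.8% in the controls. In this share replicate 1 was not alone, since replicate 2 was close to it. Results for the 10 genes are given with and without CPT2 knockdown replicate 1, and also after GC and length offsets.

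The level of the pathway differed widely between its enzymes. In the authors' FPKM, which are scaled to transcript length, SHMT2 was highest in controls at 72.4 ± 5.12 FPKM (SD, n = 3), above 95.9% of the 19494 genes with a control value above 0. MTHFD2 (35.1 ± 1.96), PSAT1 (30.5 ± 3.81) and SHMT1 (29.9 ± 1.21) formed the next tier, and neighbours among these 3 overlapped between control libraries. PHGDH followed at 21.1 ± 2.62 FPKM and MTHFD1L at 10.9 ± 0.967 FPKM, each apart from its neighbours. PSPH (6.89 ± 0.860), ASNS (6.33 ± 0.903) and PCK2 (5.69 ± 0.717) overlapped one with the next. ALDH1L2 was lowest at 3.53 ± 0.969 FPKM, so the control means spanned 20.5-fold. In the knockdown PSAT1 (15.7 to 23.7 FPKM) lay wholly below SHMT1 (26.7 to 33.7 FPKM), while the other neighbours in this order overlapped or stood apart as in controls, with SHMT2 at 76.4 ± 11.6 FPKM and ALDH1L2 at 1.61 ± 0.920 FPKM.

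None of the 10 genes passed the test between the groups. By edgeR's quasi-likelihood test with Benjamini-Hochberg adjustment over 15302 genes, 0 of 10 had an adjusted p under 0.05, beside 2 genes in all (0.0131%), ZNF320 and TICAM2, which are named only because the count is small. At an unadjusted p under 0.05, 2 of the 10 were lower, ALDH1L2 and PSAT1, where 5.29% of all tested genes were lower at that level, and none was higher, where 9.18% were (14.5% in either direction). DESeq2 gave an adjusted p for 7 of the 10 (none for ASNS, PSPH and PCK2) and called 0 of these, where it called 0.166% of 7836 genes. Limma-voom called 0 of the 10. Of the 10 genes, 4 had a positive and 6 a negative log2 fold change, and the median was -0.017, beside 0.0083 over all tested genes. The knockdown libraries lay wholly below the controls for PSAT1 and MTHFD2 and wholly above for SHMT1, where 12.2% of all tested genes lay below and 12.2% above.

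**Figure D1:**
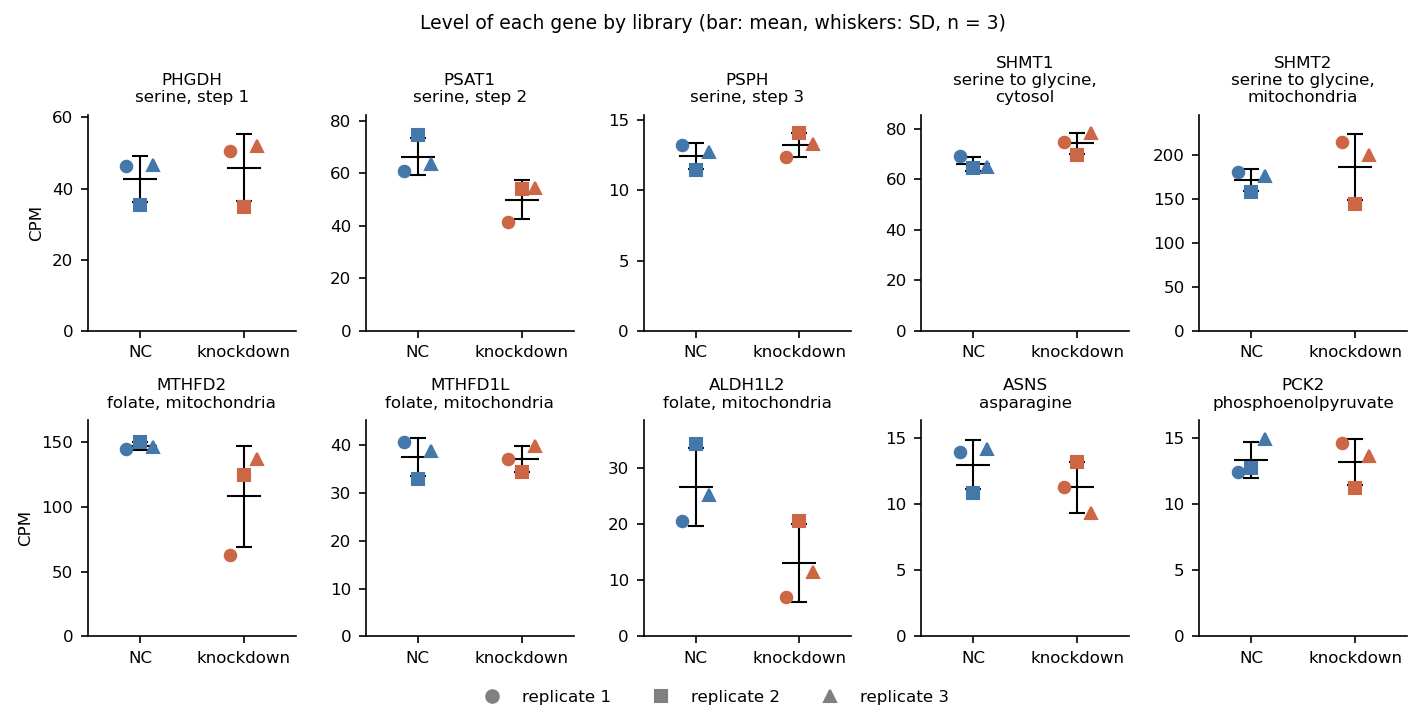
Level of each of the 10 genes in CPM (vertical axis from 0, own scale per panel) in NC and CPT2 knockdown libraries; symbols are replicates, the bar is the mean and the whiskers are the SD (n = 3). PSAT1 and MTHFD2 lie below the controls in every knockdown library, ALDH1L2 is lowest in knockdown replicates 1 and 3, and the other panels show small shifts.

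Of the 3 serine synthesis enzymes, PSAT1 was the 1 whose libraries did not overlap between the groups. Gene positions are those of GENCODE 29 on GRCh38. PHGDH (ENSG00000092621, chr1:119648411-119744226, plus strand), the dehydrogenase of the first step, had 46.4, 35.3 and 46.5 CPM in NC replicates 1 to 3 and 50.5, 34.96 and 51.9 CPM in the knockdown replicates. The second replicate of each group was the low one, and the groups overlapped (log2 fold change 0.099, SE 0.21, edgeR adjusted p = 0.786). PSAT1 (ENSG00000135069, chr9:78297143-78330093, plus strand), the aminotransferase of the second step, had 61.0, 74.6 and 63.7 CPM in controls and 41.5, 53.9 and 54.5 CPM after the knockdown. All 3 knockdown libraries were below all 3 controls, with replicate 1 the lowest. The PSAT1 log2 fold change was -0.41 (SE 0.17, 95% interval -0.80 to -0.025), a difference of -24.8%, which missed the threshold (edgeR adjusted p = 0.338). PSPH (ENSG00000146733, chr7:56011051-56051604, minus strand), the phosphatase of the last step, had 13.2, 11.4 and 12.7 CPM in controls and 12.3, 14.1 and 13.3 CPM in the knockdown, which overlapped (log2 fold change 0.087, SE 0.17, 95% interval -0.31 to 0.48, adjusted p = 0.778 by edgeR). On library size alone PHGDH and PSPH were below 0, at -0.043 and -0.047, where the median of all genes was -0.13. Exact permutation of the library labels (2-sided) gave p = 0.1 for PSAT1, the smallest that 3 against 3 allow, 0.6 for PHGDH and 0.4 for PSPH.

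The hydroxymethyltransferases that split serine had log2 fold changes of 0.17 (SHMT1, 95% interval -0.14 to 0.48) and 0.12 (SHMT2, 95% interval -0.27 to 0.51). SHMT1 (ENSG00000176974, chr17:18327860-18363563, minus strand), the cytosolic enzyme, had 69.0, 64.3 and 64.7 CPM in controls and 74.7, 69.6 and 78.1 CPM after the knockdown. The lowest knockdown library lay just above the highest control, and SHMT1 did not pass (SE 0.14; adjusted p = 0.484 by edgeR). In the FPKM fit SHMT1 had -0.0029. SHMT2 (ENSG00000182199, chr12:57229327-57234935, plus strand), the mitochondrial enzyme, had 180.5, 157.0 and 175.7 CPM in controls and 214.4, 143.7 and 199.2 CPM in the knockdown, so that knockdown replicate 2 was the lowest of all 6 libraries and replicates 1 and 3 were the highest. SHMT2 did not pass either (SE 0.17, edgeR adjusted p = 0.692). Leaving out CPT2 knockdown replicate 1 gave -0.0069, and GC and length offsets gave -0.10.

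Of the mitochondrial folate enzymes, ALDH1L2 had the largest difference of the 10 genes. ALDH1L2 (ENSG00000136010, chr12:105019784-105084577, minus strand), which oxidises formyltetrahydrofolate to carbon dioxide with formation of NADPH, had 616, 1057 and 790 raw counts in the controls, in replicate order, and 178, 579 and 334 in the knockdown. In CPM these were 20.5, 34.3 and 25.2 against 7.03, 20.7 and 11.5. Knockdown replicates 1 and 3 lay below every control and replicate 2 level with NC replicate 1. The ALDH1L2 log2 fold change was -1.03 (SE 0.37, 95% interval -1.87 to -0.19), a difference of -51.0%, which missed the threshold (edgeR adjusted p = 0.338; exact 2-sided permutation p = 0.2). It was -0.74 without CPT2 knockdown replicate 1, -1.53 without replicate 2, -0.68 (SE 0.22, adjusted p = 0.366) with GC and length offsets, and -0.52 with these offsets and without replicate 1. It was negative under all 19 alternatives, whose adjusted p ran from 0.0152 to 0.772. It was called in just 2 of them, with the replicate number as a block (4.14% of all genes called) and with block and offsets (4.37%), although the numbers are not known to pair the libraries.

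MTHFD2 (ENSG00000065911, chr2:74198562-74217565, plus strand), the mitochondrial dehydrogenase and cyclohydrolase of the same route, had 144.6, 150.3 and 146.2 CPM in controls and 63.3, 124.4 and 136.8 CPM after the knockdown. The controls lay close together and the difference was carried mostly by knockdown replicate 1. The MTHFD2 log2 fold change of -0.44 (SE 0.26, edgeR adjusted p = 0.37) became -0.18 without that library, -0.13 (SE 0.14) with GC and length offsets and -0.0059 with both. MTHFD1L (ENSG00000120254, chr6:150865549-151101887, plus strand), the mitochondrial formate-releasing synthetase, had 40.6, 33.0 and 38.8 CPM in controls and 37.0, 34.4 and 39.8 CPM in the knockdown. These overlapped throughout, with a log2 fold change of -0.014 (SE 0.16, 95% interval -0.38 to 0.35, edgeR adjusted p = 0.965).

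ASNS and PCK2, both known as targets of the stress response, also overlapped between the groups. ASNS (ENSG00000070669, chr7:97852118-97872542, minus strand) had 13.9, 10.9 and 14.2 CPM in controls and 11.3, 13.2 and 9.36 CPM in the knockdown. Its lowest and second lowest libraries were knockdown replicate 3 and NC replicate 2, with a log2 fold change of -0.20 (SE 0.21; adjusted p = 0.578 by edgeR). PCK2 (ENSG00000100889, chr14:24094053-24110598, plus strand) had 12.4, 12.7 and 14.9 CPM in controls and 14.6, 11.2 and 13.6 CPM in the knockdown, a log2 fold change of -0.020 (SE 0.19, edgeR adjusted p = 0.957). With GC and length offsets PCK2 moved to -0.42 (SE 0.14, adjusted p = 0.366; 0.0843 to 0.984 over the 18 alternatives that gave one). In that setting its 3 knockdown libraries lay at -0.57, -0.32 and -0.36 against the control mean, below the controls at -0.17, 0.084 and 0.081.

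The promoters of the 10 genes were read for the letters TGATGNAA, the composite element bound by ATF4 with C/EBP factors, because ASNS and its pathway are known for it. Windows of 250 bases before to 50 after a RefSeq start (GRCh38.p14) were given for 7 of the 10 genes, all but PSPH, SHMT2 and ALDH1L2. It was the only motif searched, on both strands, and 2 of the 7 genes had a match, where 2.76% of the tested genes with a window had one. By window, 4 of 11 had a match, 3 of them in MTHFD1L, where 3.62% of all 35116 windows had one. Several windows of a gene can share a site. The element was chosen because ASNS is known for it, so these shares are a description and test no enrichment. The matching stretches are shown 5′ to 3′ on the strand of the gene, at chr7:97872458-97872487 (minus strand) for ASNS and chr6:150866346-150866375 (plus strand) for MTHFD1L, with the match in capitals.
ASNS: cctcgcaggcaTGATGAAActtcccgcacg
MTHFD1L: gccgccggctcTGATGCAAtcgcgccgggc
The first capital lay 68 bases before one of 2 listed starts in ASNS, and 129 and 90 bases before 2 of the 4 listed starts in MTHFD1L. In the remaining matching window of MTHFD1L the match did not lie wholly before the start. The sites shown lie inside the GENCODE spans given above for ASNS and MTHFD1L. These genes had log2 fold changes of -0.20 and -0.014. The genes with a window and no match had -0.41 (PSAT1), -0.44 (MTHFD2), -0.020 (PCK2), 0.099 (PHGDH) and 0.17 (SHMT1). With GC and length offsets ASNS had -0.18 and MTHFD1L -0.055. In the same order, the genes with no match then had -0.31, -0.13, -0.42, 0.014 and 0.044. Over the 10295 tested genes with a window, the median was -0.18 on the log2 scale for the 284 with a match and -0.022 for the 10011 without. The genes with a match had a median transcript GC content of 47.1% against 48.6%, and after GC and length offsets the medians were -0.042 and -0.00029.

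**Figure D2:**
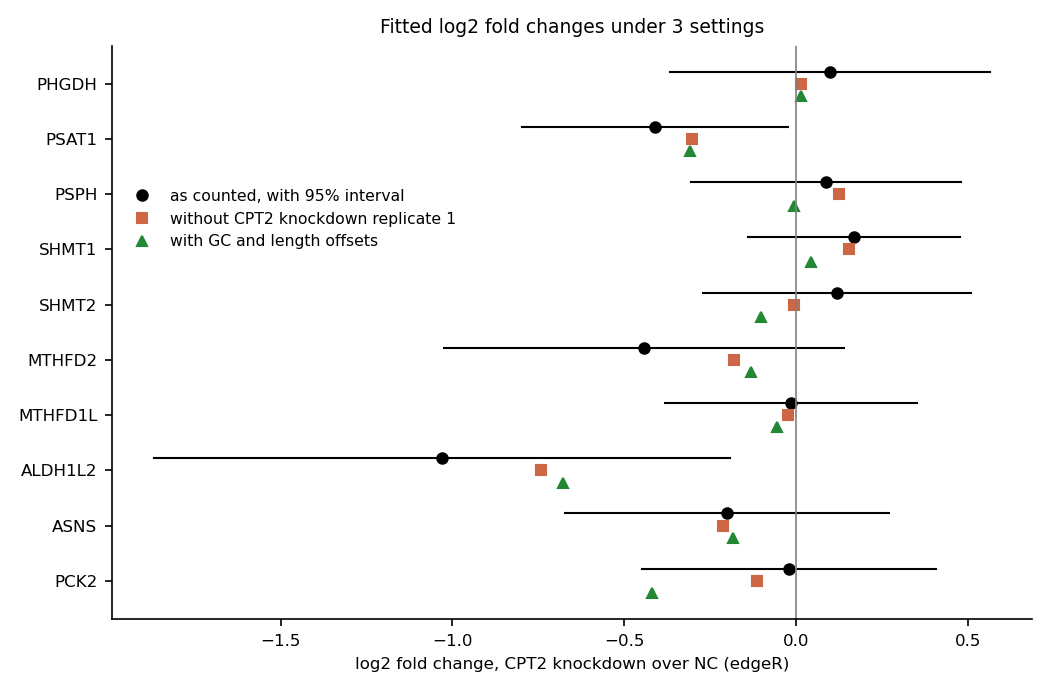
Fitted log2 fold change (horizontal axis, CPT2 knockdown over NC, edgeR) of each gene as counted with its 95% interval (black), without CPT2 knockdown replicate 1 (squares) and with GC and length offsets (triangles). ALDH1L2 moves from -1.03 to -0.74 and -0.68, MTHFD2 from -0.44 to -0.18 and -0.13, PSAT1 from -0.41 to -0.30 and -0.31, and PCK2 from -0.020 to -0.11 and -0.42.

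The order of the fold changes ran partly with transcript GC content. PSAT1, ALDH1L2 and MTHFD2 had the lowest GC content of the 10 longest transcripts, at 42.3%, 42.1% and 41.4%, and their GC decile had a median of -0.27 on the log2 scale. PCK2 had the highest, 61.6%, in a decile with a median of 0.33. PHGDH, SHMT1, MTHFD1L and PSPH lay between 49.8% and 52.6%, in deciles with medians of 0.0027 and 0.14. After GC and length offsets, 8 of the 10 genes were below 0 with a median of -0.12, where the median of all genes was -0.0023. In that fit 3 of the 10, PSAT1, ALDH1L2 and PCK2, were lower at an unadjusted p under 0.05, where 5.56% of all genes were (13.1% in either direction), and 0 had an adjusted p under 0.05, where 0.0227% had. PSAT1 there had a log2 fold change of -0.31 (SE 0.10, adjusted p = 0.366), with knockdown replicates at -0.28, -0.34 and -0.27 and controls at -0.12, 0.15 and -0.033 against the control mean.

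**Figure D3:**
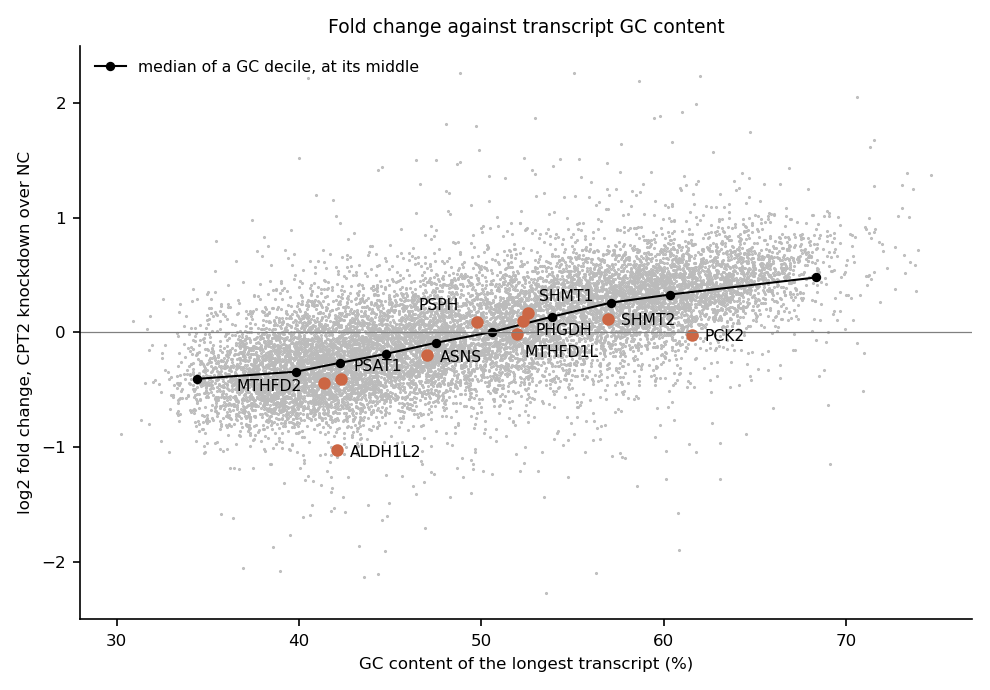
Log2 fold change (vertical axis, CPT2 knockdown over NC) against the GC content of the longest transcript (horizontal axis, percent) for 13207 tested genes (grey; 13 beyond 2.5 are not drawn), with decile medians in black and the 10 genes in colour. Decile medians run from -0.41 to 0.48, and ALDH1L2 and PCK2 lie farthest below them.

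Ratios of counts within a library, which need no scaling for depth but keep any difference in GC content between the genes, were compared for 6 pairs of enzymes that follow or mirror each other. PSAT1 to PHGDH, consecutive steps of serine synthesis, stood at 1.31, 2.11 and 1.37 in controls and at 0.821, 1.54 and 1.05 in the knockdown. MTHFD2 to MTHFD1L stood at 3.56, 4.56 and 3.77 in controls and at 1.71, 3.62 and 3.43 in the knockdown. ALDH1L2 to MTHFD1L stood at 0.506, 1.04 and 0.65 against 0.19, 0.601 and 0.287. For each of these the mean was lower in the knockdown but the libraries overlapped. SHMT2 to SHMT1, the mitochondrial over the cytosolic enzyme, stood at 2.62, 2.44 and 2.72 against 2.87, 2.06 and 2.55, a mean difference of -0.066 on the log2 scale. No ratio passed, with exact 2-sided permutation p of 0.2 to 1 and adjusted values of 0.45 to 1 over the 6. Without CPT2 knockdown replicate 1 the log2 difference for PSAT1 to PHGDH went from -0.51 to -0.29, for MTHFD2 to SHMT2 from -0.62 to -0.16, and for the ratios to MTHFD1L from -0.51 to -0.16 for MTHFD2 and from -1.13 to -0.75 for ALDH1L2. In these 4 ratios the GC content of the numerator's transcript minus that of the denominator's was -9.83 to -15.6 percentage points.

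**Figure D4:**
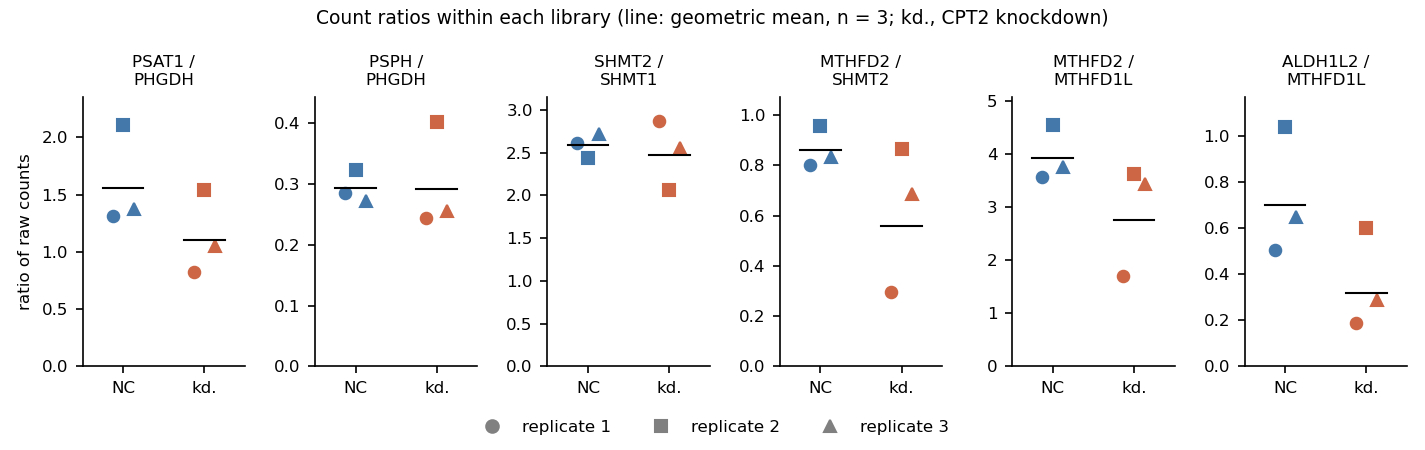
Ratio of raw counts of 2 enzymes within each library (vertical axis from 0, own scale per panel) in NC and CPT2 knockdown (kd.); symbols are replicates and lines are geometric means (n = 3). Groups overlap in all 6 panels, and knockdown replicate 1 is the lowest point for PSAT1 to PHGDH and for all ratios of MTHFD2 and ALDH1L2.

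The partner genes of the pathway were taken from 5 lists, and none of their tested members passed by edgeR. Of 23 tested folate enzymes and carriers, 11 had positive and 12 negative log2 fold changes (median -0.011). FPGS, which adds glutamates to folate and so keeps it in the cell, went from 131.9 ± 20.0 to 206.3 ± 67.4 CPM (SD, n = 3 each; log2 fold change 0.65, SE 0.23, edgeR adjusted p = 0.338). FOLR1, folate receptor alpha, had 3280 ± 372 CPM in controls and 4807 ± 1019 CPM in the knockdown (0.55, SE 0.18). MTR, methionine synthase, had 81.6 ± 8.80 and 55.5 ± 14.8 CPM (-0.56, SE 0.21). With GC and length offsets FPGS had 0.13, FOLR1 0.19 and MTR -0.19, and without CPT2 knockdown replicate 1 they had 0.35, 0.36 and -0.37. MTHFD1, the cytosolic folate enzyme that mirrors the mitochondrial route, had a log2 fold change of -0.098 (SE 0.13) and TYMS, thymidylate synthase, 0.18 (SE 0.16).

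Purine synthesis, which consumes formate, had 7 of 9 tested genes below 0 (median -0.12), with GART at -0.26 (SE 0.15), PPAT, the entry enzyme, at -0.57 (SE 0.33), and IMPDH2 of guanine nucleotide synthesis at 0.39 (SE 0.15). Without CPT2 knockdown replicate 1 PPAT had -0.26, and GC and length offsets gave -0.11 for GART, -0.19 for PPAT and 0.14 for IMPDH2. The methionine cycle and transsulfuration list had 6 of 7 below 0 (median -0.19), with MAT2A at -0.20, MAT2B at -0.41 and CTH, cystathionine gamma-lyase, at -0.19. Without CPT2 knockdown replicate 1 these were -0.066, -0.14 and -0.049. Of 20 partners in serine, asparagine and phosphoenolpyruvate metabolism, 12 were above and 8 below 0 (median 0.11). PKM, pyruvate kinase, had 1760 ± 106 and 2315 ± 99.1 CPM with no overlap (log2 fold change 0.40, SE 0.13, edgeR adjusted p = 0.338). Of all tested genes, 12.2% lay wholly above the controls. PTDSS2, which makes phosphatidylserine, had 0.55 (SE 0.25), and 0.28 without CPT2 knockdown replicate 1.

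ATF4, the stress-response factor itself, had 198.1, 190.7 and 197.4 CPM in controls and 256.6, 209.8 and 234.0 CPM in the knockdown, higher in all 3 (log2 fold change 0.26, SE 0.13, edgeR adjusted p = 0.344), but -0.056 with GC and length offsets. DDIT3, which encodes the stress factor CHOP, had 8.50, 11.2 and 12.7 CPM against 7.63, 5.89 and 5.11 CPM, lower in all 3 (-0.80, SE 0.24, adjusted p = 0.338 by edgeR). Of all tested genes, 12.2% lay wholly above the controls and 12.2% wholly below. ATF3, a stress-induced repressor, had 24.9 ± 1.75 and 17.2 ± 3.54 CPM (-0.54, SE 0.20), and ATF5, a factor translated under stress, 17.6 ± 2.16 and 25.02 ± 2.12 CPM (0.50, SE 0.18). The offsets gave -0.57 for ATF3 and 0.12 for ATF5. Of the 20 tested regulators and markers, 13 were below and 7 above 0 (median -0.29), and 5 were lower and 1 higher at an unadjusted p under 0.05, where 5.29% and 9.18% of all genes were. With GC and length offsets 16 were below 0, the median was -0.14, and none passed. DDIT3 then lay at -0.83, -0.88 and -1.29 in the knockdown libraries and at -0.40, 0.20 and 0.20 in the controls, against the control mean.

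**Figure D5:**
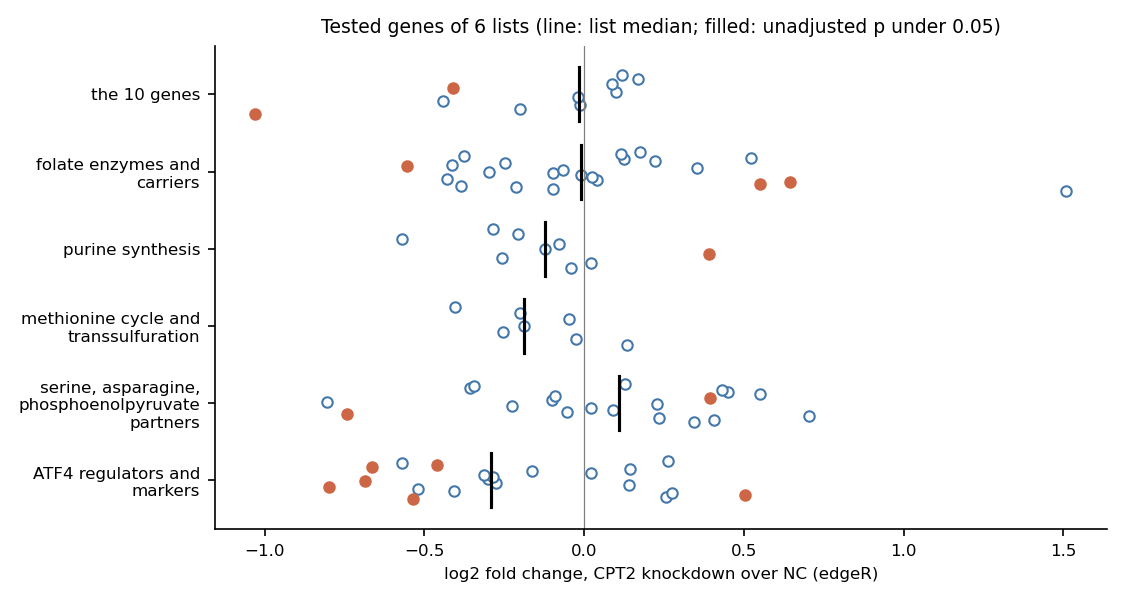
Log2 fold change (horizontal axis, CPT2 knockdown over NC, edgeR) of every tested gene of the 10 and of 5 partner lists; lines are list medians and filled points have an unadjusted p under 0.05. The median is nearest 0 for the folate list (-0.011) and the 10 genes (-0.017), and lowest for the ATF4 regulators and markers (-0.29).

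In the authors' deposited table, ALDH1L2 was the only one of the 10 with a call, down, where 1.38% of the 13635 genes with a p-value were called down and 2.77% up. The authors' deposited table lists ALDH1L2 at -1.03 on the log2 scale (unadjusted p = 0.00479), PSAT1 at -0.41 (0.0252) and MTHFD2 at -0.45 (0.102), the last 2 called normal. Reads may be shared with other genes where exons overlap, which was not measured. Exons of SHMT1 overlap SMCR8 (50.5 CPM in controls), those of ALDH1L2 overlap C12orf45 (12.6 CPM) and those of CPT2 overlap C1orf123 (15.8 CPM). Those of MTHFD2 and SHMT2 overlap genes under 1 CPM. All these lie on the opposite strand, and whether the counting used strand was not stated. Of the overlapping genes without deposited counts, AC079781.5 (at ASNS) and MIR6778 (at SHMT1) lie on the same strand. GENCODE also lists 7 pseudogene copies named after MTHFD2, 4 after ASNS, 4 after PSAT1 and 1 each after PSPH and SHMT1, so reads shared with copies are uncertain for these 5 genes. Across the 6 libraries the genes whose log2 CPM followed the mean standardised profile of the 10 most closely were SNRPE (r = 0.989), PALM2-AKAP2 (r = 0.986, with 0 counts in 3 libraries) and TMEM199 (r = 0.972), out of 9533 compared. These values share the same libraries, depths and GC trend and are given as a description.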

How the data were processed

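The authors deposited raw counts per gene and library, beside FPKM values whose gene models and library sizes the file headers do not state, and the p-value and log2 fold change of their own comparison. The submitters' processing notes list edgeR, DESeq2, StringTie, Bowtie2, TopHat2, HISAT2 and build GRCh38 but neither roles nor versions. After 17 stray lines were left out, 24154 genes stayed, 4180 of them new loci (5.32% to 7.18% of counts), which were kept.

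The test between groups was run on the counts with edgeR 4.0.16 under R 4.3.3 (filterByExpr, TMM, quasi-likelihood F-test with robust estimation), adjusted over all 15302 genes by the Benjamini-Hochberg method at 0.05. SE is the log2 fold change divided by the root of F. CPM use TMM-scaled sizes, and per-library log2 values use log2(CPM + 0.5). Transcript length and GC content came from the longest GENCODE 29 transcript on GRCh38, and the offsets from a loess (span 0.5) of each library on both. Alternatives were DESeq2 1.42.0, limma 3.58.1 (voom, and trend on log2(FPKM + 1) for genes with a mean of at least 0.5 FPKM), other scaling factors and filters, Ensembl genes alone, a replicate block and each library left out. The tests were also run on simulated counts with 200 changed genes. Those counts held no GC trend and no library standing apart, so that run cannot speak for these features of the data.

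The members, lists, alternatives and rule for named genes were chosen with earlier results of these data known. The rule took the 10 genes, CPT2, the 3 smallest p-values of each partner list, ATF4, DDIT3, ATF3, and the 3 genes most like the mean profile at 10 CPM or more. MTHFD1 and TYMS were added for their roles after their values were seen. Not every gene under the rule is reported here. The 6 ratios and the motif were chosen at the analysis stage.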

Additional observations from a re-analysis of the deposited data

How the results depend on the processing

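The count of 2 genes called was 13 by DESeq2 (2802 at an unadjusted p under 0.05, against 2215 by edgeR), 1 by limma-voom, 0 by limma-trend on log2(FPKM + 1) (2016 at an unadjusted p under 0.05), 1 at an adjusted p of 0.01, 1 with the filter at 1 CPM in 3 libraries and a mean of 5 CPM, and 4 with GC and length offsets and without CPT2 knockdown replicate 1. It ran from 1 to 5 when single libraries were left out. With the replicate number as a block it was 633, and 577 with block and offsets, ALDH1L2 among them both times (log2 fold changes -1.13 and -0.71, adjusted p 0.0475 and 0.0152), and no other of the 10 genes. The numbers are not known to pair the libraries. Deviations from the group means correlated at 0.331, 0.494 and 0.0061 between the libraries numbered 1, 2 and 3. For numbers 1 and 2 the best match, in both directions, was the library of the same number. NC replicate 3 correlated best with CPT2 knockdown replicate 1, and CPT2 knockdown replicate 3 with NC replicate 2.

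The median of the 10 genes was -0.16 on library size alone, where all genes had -0.13, and ran from -0.077 to 0.039 when single libraries were left out. PSAT1, ALDH1L2, MTHFD2 and ASNS were negative under all 19 alternatives. Signs turned on library size alone for PHGDH (-0.043), PSPH (-0.047) and SHMT2 (-0.027), in the FPKM fit for PHGDH (-0.063), PSPH (-0.14) and SHMT1 (-0.0029), with offsets for PSPH (-0.0058), SHMT2 (-0.10), ATF4 (-0.056) and CPT2 (0.030), with offsets and block for PSPH (-0.0086), SHMT2 (-0.11) and ATF4 (-0.056), and with offsets without CPT2 knockdown replicate 1 for PHGDH (-0.034), SHMT2 (-0.11) and ATF4 (-0.022). Leaving out single libraries gave -0.022 to 0.26 for PHGDH, -0.0069 to 0.27 for SHMT2, -0.098 to 0.047 for MTHFD1L and -0.11 to 0.078 for PCK2. The cause was not tested. With 3 libraries a group, the 95% intervals of 8 of the 10 genes included 0.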
